A study of Mus musculus with 15 samples.

Results

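PU.1 was mapped on nucleosomes that had been assembled in the test tube from mouse macrophage DNA, and the result is a list of 57512 peaks made from 1 pair of libraries. All peaks of that list were taken, which is 34.4% of the 167152 peaks in the 5 lists of the series. The DNA came from bone marrow-derived macrophages of C57BL/6 mice on day 7 of differentiation, with no retroviral treatment. It was stripped of protein, sonicated to pieces under 2 kb and combined with recombinant histone octamers at 1 octamer to 2 units of 150 bp, so that octamers could choose among sequences. A brief digestion with micrococcal nuclease (5 U for 2 min) left mainly pieces of a few nucleosomes and removed bare DNA. Macrophage nuclear extract was then added at 4 °C for 2 h, and complexes were recovered with 5 µg of an antibody raised against the N-terminal part of PU.1.

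The 2 libraries differ in the extract alone. In the first, the extract had been treated with normal rabbit IgG and kept its PU.1, and in the second it had been treated with the anti-PU.1 antibody (8 µg, in both cases). Peaks are places where the first library exceeded the second. The other lists, used here only as background, are 4 PU.1 immunoprecipitations from living macrophages of the same strain, crosslinked with 1% formaldehyde. Of these, 2 came from cells infected with a retrovirus whose hairpin targets Renilla luciferase (control), and 2 from cells with a hairpin against PU.1 (shPU.1), after doxycycline at 0.5 µg/ml for 48 h. The remaining 9 samples of the series are nuclease digests and were not analysed here.

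PU.1 is a transcription factor of the ETS family that is required for macrophages and B cells and binds purine-rich DNA with a GGAA core. In macrophages it sits at many enhancers, often beside other lineage factors, and it can take part in opening chromatin. A site in a cell therefore depends on the DNA sequence, on the nucleosome over it and on neighbouring factors and remodelling enzymes, whereas assembled chromatin offers sequence, histones and the proteins of the extract without the native chromosome. The extract holds other nuclear proteins too, so binding here is not that of PU.1 alone.

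Peaks were of even size. The median width was 846 bp (order-statistic 95% interval 844 to 848), the central 50% lay between 695 and 1001 bp, and the 5th and 95th percentiles were 542 and 1293 bp. The 95th percentile was 2.39 times the 5th, against 2.85 to 4.00 times in the 4 lists from cells. Only 171 peaks measured 2 to 5 kb and 20 measured 5 kb or more, while 28232 (49.1%) lay between 700 and 1000 bp. The peaks covered 50.2 Mb, or 1.95% of the 2572 Mb between the first and last peaks of any list on each nuclear chromosome. In the lists from cells the covered share was 0.281% to 1.42%, with widths that differed between replicates (medians of 435 and 448 bp in replicates 1, and 892 and 1076 bp in replicates 2).

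**Figure D1:**
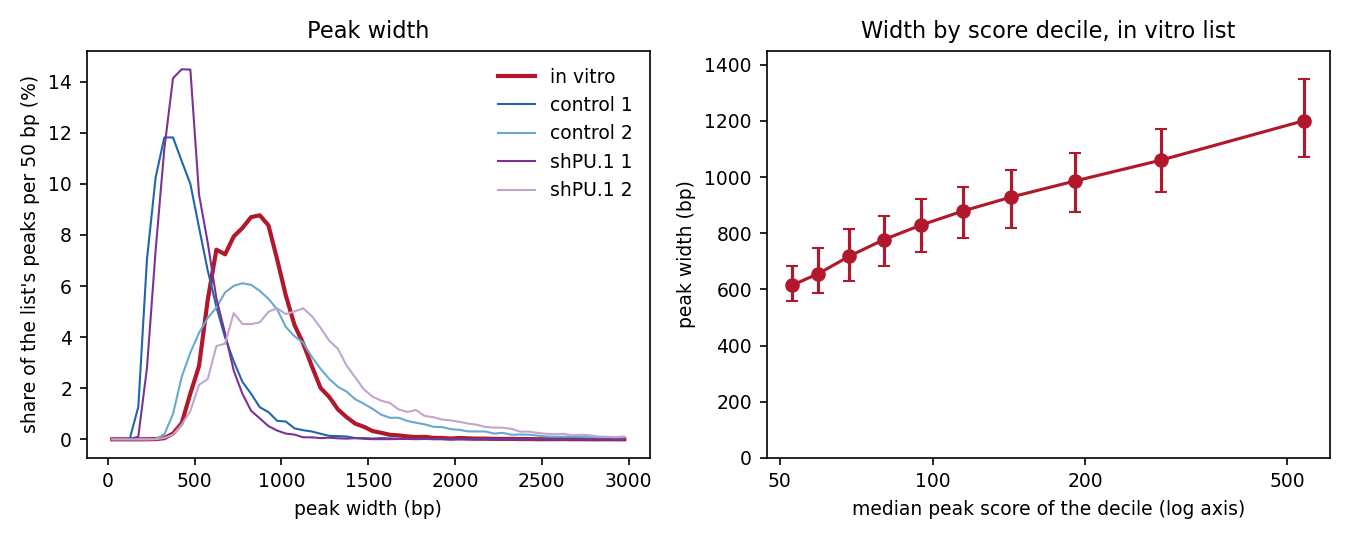
Left: share of each list's peaks (%) per 50 bp of width, for the in vitro list and the 4 lists from cells (control and shPU.1, replicates 1 and 2). Right: median width (points) and quartiles (bars) of in vitro peaks in deciles of their score, with the score on a log axis; the median rises from 615 to 1201 bp.

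Scores lay mostly at the low end of their range, and a few peaks shared the value 3100 near its top. The score follows the significance of a peak against the depleted library and grows with depth, so it ranks peaks within the list and does not measure affinity. Its median was 104 (quartiles 68.5 and 191). In cells the medians were 94.8 and 120 (control) and 76.6 and 95.3 (shPU.1), so in vitro scores were not low by comparison. In vitro, 8936 peaks (15.5%) scored below 60, where the lowest value in the list was 50.01. A further 2542 peaks scored 500 to 1000, and 723 scored from 1000 to below 3100. Wider peaks scored higher: the rank correlation of score and width over the 57512 peaks was 0.77, against 0.28 to 0.49 in the lists from cells, and median width rose in every decile, from 615 bp in the lowest to 1201 bp in the highest. Both values of a peak come from the same reads, so this relation is a property of the list and not a finding about sites. Among peaks scoring at least 100 the correlation was 0.58.

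Scores piled up at 3100, though this was not the highest value. There were 57 peaks at or above it, 56 of them at exactly 3100 and 1 at 3142.8. Only 5 scored between 3000 and 3100. In the lists from cells, 3 to 25 peaks reached 3100, and the highest score of a list was 3100 to 3215. The lists differ in length. Peaks at or above 3100 made up 0.0991% of the in vitro list and 0.00999% to 0.0901% of the lists from cells. The share in shPU.1 replicate 2 (0.0901%) was thus close to that in vitro. Rank among the 56 at 3100 therefore carries no information. All 57 are called saturated here, including the 1 with a value of its own. They were of 2 kinds, by neighbourhood: 22 lay within 50 kb of another saturated peak and 35 lay alone. Of the 22, 10 lay in a single stretch of 37219 bp at chr9:2999852-3037070, where the list has 19 peaks in all. A further 3 lay at chr2:98501947-98507801 and 3 at chr11:3030374-3100264, and the others were on chromosomes 1, 17 and Y in groups of 2. The saturated peaks were wide, with a median of 1871 bp and 35 of 57 wider than 1692 bp, which is 2 times the median of the whole list.

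Most saturated peaks touched a peak of some list from cells. An in vivo peak lay on 49 of the 57 (86.0%), including all 22 that had a saturated neighbour and 27 of the 35 that lay alone. The 22 share a few stretches, so the 49 are not separate places. For example, the neighbours chr17:39979792-39983774 and chr17:39983957-39985921 had identical scores in each list from cells, so their partners may be the same peaks. The share on an in vivo peak was 20.7% over all in vitro peaks and 42.6% in the highest score decile. Saturated peaks are wider, which raises overlap. With every in vitro peak cut to its central 200 bp the shares were 84.2%, 20.0% and 41.7% in the same order. Single lists had a peak on 39 and 44 (control) and on 36 and 29 (shPU.1) of them. The 8 without one comprised 4 on chromosome 2, 1 each on chromosomes 3, 8 and 9, and the mitochondrial peak. The last of these spans 5728 bp and is listed as starting before the first base of the molecule. It is 1 of 3 mitochondrial peaks of the in vitro list, and none of the 4 lists from cells has one.

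The peak with the highest score, chr17:57808979-57814730 (5752 bp), had low-scoring partners in control replicate 1 (101) and shPU.1 replicate 2 (104) and none in the other 2 libraries. The next in order of position were chr1:90121879-90129069 (7191 bp), which held a peak in all 4 lists from cells at scores of 148 to 228, and chr1:90148615-90166923 (18309 bp), also in all 4, at 70.3 to 532. The remaining peaks named by rule were narrower, though both exceeded the 95th percentile of width. The first, chr10:17125944-17127273 (1330 bp), matched a peak of control replicate 2 only (score 242), and its nearest in vitro neighbour was 95828 bp away, centre to centre. The second, chr10:94190209-94191866 (1658 bp), matched peaks of both control libraries (154 and 704) and of shPU.1 replicate 2 (121). These 5 sites were all at the end of the score scale in vitro, and from 1 to 4 of the lists from cells had a peak on them.

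The 5 widest peaks were all saturated. Of these, 3 stood side by side at the start of chromosome 11, at chr11:3075030-3100264 (25235 bp), chr11:3051949-3074975 (23027 bp) and chr11:3030374-3049072 (18699 bp), and held 4 to 6 separate peaks of shPU.1 replicate 1 each. The others were the second chromosome 1 peak above and chrY:2779460-2797536 (18077 bp), which scored 210 and 2050 in the control lists and 3100 in both shPU.1 lists. Each of these widths exceeds the longest DNA pieces of the assembly (2 kb), so each peak spans more than 1 fragment. In control replicate 1 the 3 chromosome 11 peaks held 1 peak each, at scores of 57.6 to 205. Control replicate 2 had a peak on chr11:3030374-3049072 only (73.4), and shPU.1 replicate 2 had none on any of the 3.

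High scores in narrow peaks were rare. Among peaks no wider than the median, the highest scores were at chr2:98503651-98504401 (751 bp, 3100) and chr2:98504867-98505505 (639 bp, 2800), both inside the saturated stretch on chromosome 2. Between them came chrX:139917399-139917803 (405 bp, 2862), which had a peak in all 4 lists from cells at scores of 150 to 346. The next were chr12:3109720-3110274 (555 bp, 2374) and chr9:3037846-3038648 (803 bp, 2301), the latter at the edge of the stretch on chromosome 9. Thus 4 of these 5 lay either in a saturated stretch or within 1 Mb of the first peak of a chromosome.

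In vitro peaks were spread along chromosomes nearly as evenly as independent placement would spread them. Uniform placement was computed by formula, with each peak equally likely to fall anywhere between the first and last peaks of any list on its own chromosome, and no draws were made. Stretches where no list has a peak were counted as open to placement, and whether reads can be mapped there was not tested. Among peaks on nuclear chromosomes, 21764 (37.8%, exact 95% interval 37.4 to 38.2) had the centre of another peak within 10 kb, against 37.0% by the formula, a ratio of 1.02. The intervals cover counting of peaks within this list only. Peaks cannot overlap, which lowers the observed share, and measured from edge to edge against non-overlapping placement the ratio was 1.08. The median gap was 27670.5 bp, against 29468 bp by formula.

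Lists from cells were far more clustered by the same measure. There, 30.3% to 55.3% of peaks had a neighbour within 10 kb, 1.81 to 2.58 times the uniform value, and all 4 lists stood above the in vitro list. With each list limited to its 15122 highest-scoring peaks, the length of the shortest, the ratio was 1.13 in vitro and 2.57 to 3.02 in cells. Peak pairs showed the same over a wider range. On autosomes, pairs of in vitro peaks 2 to 5 kb apart were 1.16 times as frequent as under uniform placement, falling to 1.09 at 5 to 10 kb and 1.02 at 0.5 to 1 Mb. In cells these ratios were 2.41 to 3.70 at 2 to 5 kb and still 1.35 to 1.56 at the longest distance. There is 1 in vitro list, so the spread of its ratios between replicates is unknown, but the lowest in vivo ratio exceeded the in vitro one at each of the 9 distances.

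**Figure D2:**
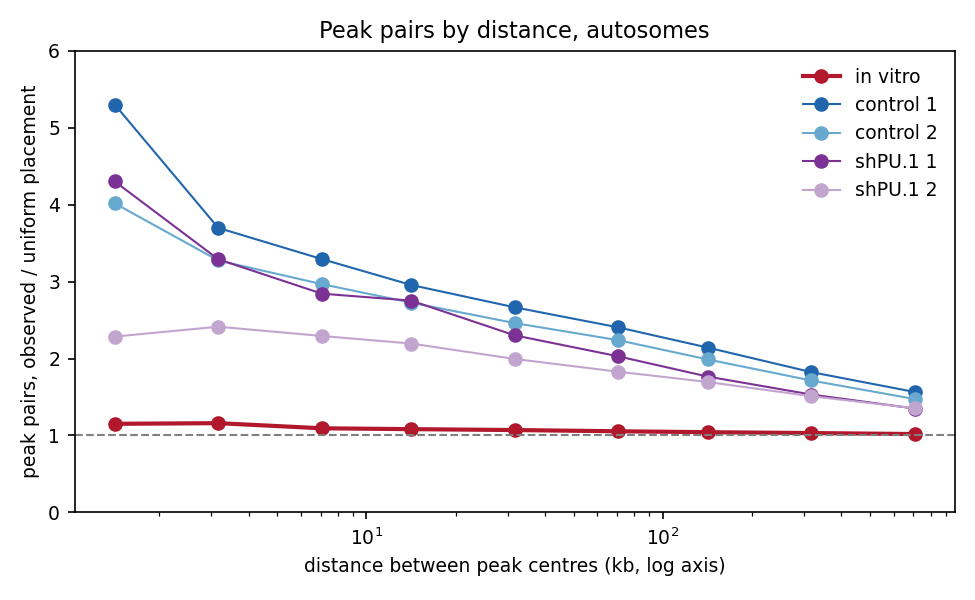
Number of peak pairs on autosomes divided by the number under uniform placement (vertical axis), by distance between centres (kb, log axis), for the in vitro list and the 4 lists from cells. The dashed line marks 1; the in vitro list runs from 1.15 down to 1.02 and every list from cells stays above it.

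The gaps showed where the small excess lay. Between neighbouring peaks, 17683 of 57488 gaps (30.8%) measured 20 to 50 kb, against 31.4% by formula. Gaps of 50 to 100 kb were slightly too few (0.93 times) and gaps of 2 to 5 kb slightly too many (1.11 times). The longest gaps, of 200 kb or more, were also too many, with 887 against 763 by formula (1.16 times). Under 200 bp there were 464 gaps against 271 by formula, and gaps under 50 bp stood at 1.93 times. Without the 145 peaks in chains of 8 or more (centres linked up to 10 kb), there were 434 gaps under 200 bp. Scores of neighbouring peaks were almost unrelated, with a rank correlation of 0.099 over 1805 pairs of neighbours less than 1 kb apart and 0.014 over 11435 pairs 1 to 10 kb apart.

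**Figure D3:**
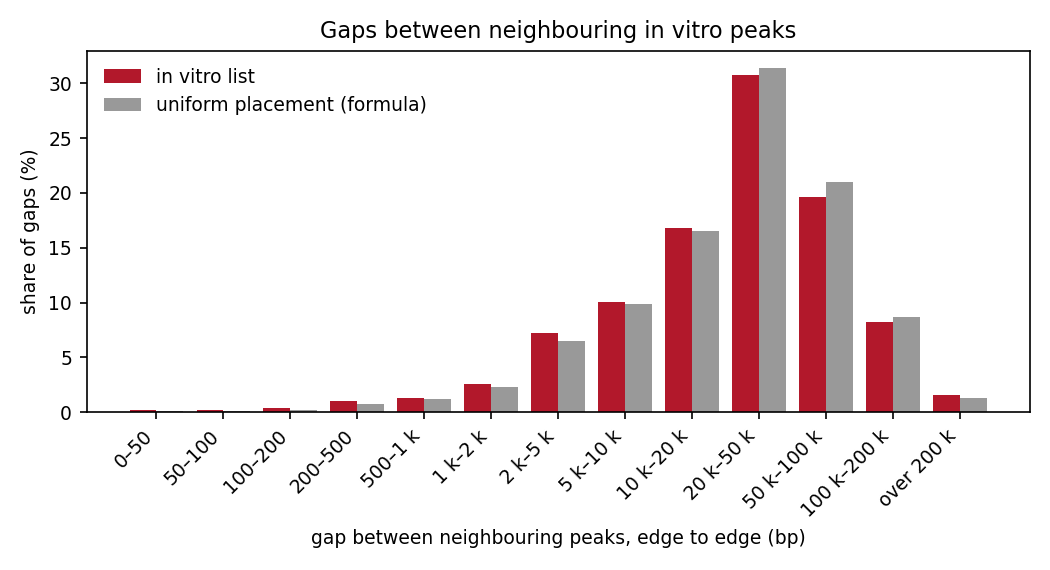
Share of gaps (%) between neighbouring in vitro peaks, edge to edge, by size of the gap (bp), beside the share under uniform placement by formula. The 2 sets of bars are close in absolute share, with the largest share at 20 to 50 kb in both. By ratio they part most below 500 bp, at 1.44 to 1.93 times.

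Chains of close peaks were examined next, with centres linked up to 10 kb. A total of 35745 peaks (62.2%) stood alone, and there were 7383 chains of 2 peaks against 7432 by formula and 1605 of 3 against 1547. Observed and formula values parted at longer chains, with 23 chains of 6 against 14.3, 7 of 7 against 3.03, and 11 of 8 or more against 0.814. These 11 held 145 peaks. The 5 longest were at chrX:121263744-121328604 (23 peaks in 64861 bp, median score 150), chr9:2999852-3038648 (21 peaks, median score 2301), chr3:25415830-25455914 (18 peaks, median score 221), chr16:3231520-3276699 (12 peaks, median score 286) and chrX:120759207-120784614 (12 peaks, median score 154). The chromosome 9 chain is the saturated stretch described above, whereas the others held at most 1 saturated peak.

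Peaks of the longest chains touched a peak of some list from cells in 4 to 17 cases a chain, and apart from the chromosome 9 chain, none of the 5 had a peak on both controls. On the chromosome 3 chain, 17 of 18 in vitro peaks touched a peak of some list from cells but 0 touched peaks of both controls, and the corresponding counts were 12 of 23 and 0 on the longer chromosome X chain. Over all chains of 8 or more, 60.7% of peaks lay on some in vivo peak and 11.7% on peaks of both controls. For peaks standing alone these shares were 19.3% and 9.33%. The share on any in vivo peak rose with chain length (21.5% for chains of 2, 24.8% for 3 to 4 and 30.1% for 5 to 7), and the share on both controls rose less, to 13.7% for 5 to 7. Chains of 8 or more number only 11, so their shares rest on few places.

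Clustering differed within the list. Peaks below a score of 100 (27565 peaks) had neighbours of their own kind 1.02 times as often as uniform placement gives. Peaks of the highest score decile (above 366.9) had them 1.33 times as often, and 1.18 times without chains of 8 or more. Each of the 9 lower deciles, taken by itself, lay between 0.963 and 1.06. The 45623 in vitro peaks with no in vivo peak stood at 1.03, and the 11889 with one at 2.26. The latter set was cut out by lists that are themselves clustered, which raises its value by construction. In the highest decile, the 3298 peaks without an in vivo peak stood at 1.10. The same lists decided which peaks stayed in the sets without an in vivo peak, so 1.03 and 1.10 also depend on that cut.

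On the scale of megabases the in vitro list was more even than the lists from cells, though less even than independent placement. The 2383 windows of 1 Mb on autosomes held a median of 23 peaks, with 19 and 27.5 as quartiles and 13 and 34 as the 5th and 95th percentiles. The variance was 1.97 times the mean, where independent placement gives 1, and 2.70 times when chromosomes X and Y were included. Leaving out windows empty in every list lowered the latter value to 2.42. In the lists from cells the variance was 5.39 to 14.7 times the mean on autosomes. This measure grows with the number of peaks, so the lists were also compared by the variance minus the mean, divided by the squared mean. That value was 0.041 in vitro and 0.64 to 1.09 in cells. No peak fell in 26 of the windows in vitro, and 24 of these were empty in every list. In cells 214 to 490 windows were empty. Among windows with in vitro peaks, 90 held no peak of any list from cells, and they had a median of 20 in vitro peaks and at most 32.

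Busy windows were more frequent than under uniform placement. There were 24 autosomal windows with 40 peaks or more, against 2.60 by formula. The highest was the megabase from chr1:173000001-174000000 with 51 in vitro peaks, where control replicates 1 and 2 had 46 and 68 peaks and shPU.1 replicates 1 and 2 had 28 and 39. The next were chr1:140000001-141000000 and chr2:102000001-103000000 with 48 each, followed by chr10:44000001-45000000 and chr19:11000001-12000000 with 44 each. None of the 5 held a saturated peak. Their median scores were 90.8 to 159, with the highest on chromosome 19. In cells the 4 windows after the first held 18 to 27 and 20 to 46 peaks in control replicates 1 and 2, and 8 to 13 and 15 to 31 in shPU.1 replicates 1 and 2.

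The longest stretches without an in vitro peak were chrX:23605304-31532733 (7.93 Mb), chr7:39028110-46528970 (7.50 Mb) and chr12:21395882-25201317 (3.81 Mb). The 4 lists from cells together had 1, 6 and 12 peaks there. Stretches over 1 Mb numbered 24.

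Density was nearly the same on every autosome. It ran from 19.9 peaks per Mb on chromosome 7 to 25.3 on chromosome 18, a ratio of 1.27 (binomial 95% interval 1.20 to 1.34), with a coefficient of variation of 5.75% over 19 autosomes. The densest was chromosome 1 by bases covered, 10 with spans counted from position 1 and 9 among the 15122 highest-scoring peaks, where chromosome 12 replaced 7 as the sparsest. The counting error of a single autosome was 1.89% on average, so the autosomes differed by more than counting error, and chromosome 7 also holds the 7.50 Mb empty stretch. In cells the coefficient of variation was 17.2% to 23.2%. Chromosome 11 was the densest in 3 of the 4 lists from cells (20.1, 23.0 and 9.18 peaks per Mb) and chromosome 3 the sparsest in all 4 (4.79 to 11.6). In vitro these chromosomes had 23.5 and 23.6 peaks per Mb. The rank correlation over 19 autosomes between in vitro density and density in cells was -0.14 to 0.01 for the 4 lists, while the lists from cells correlated with each other at 0.93 to 0.97. These are descriptions, since the chromosomes share libraries.

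**Figure D4:**
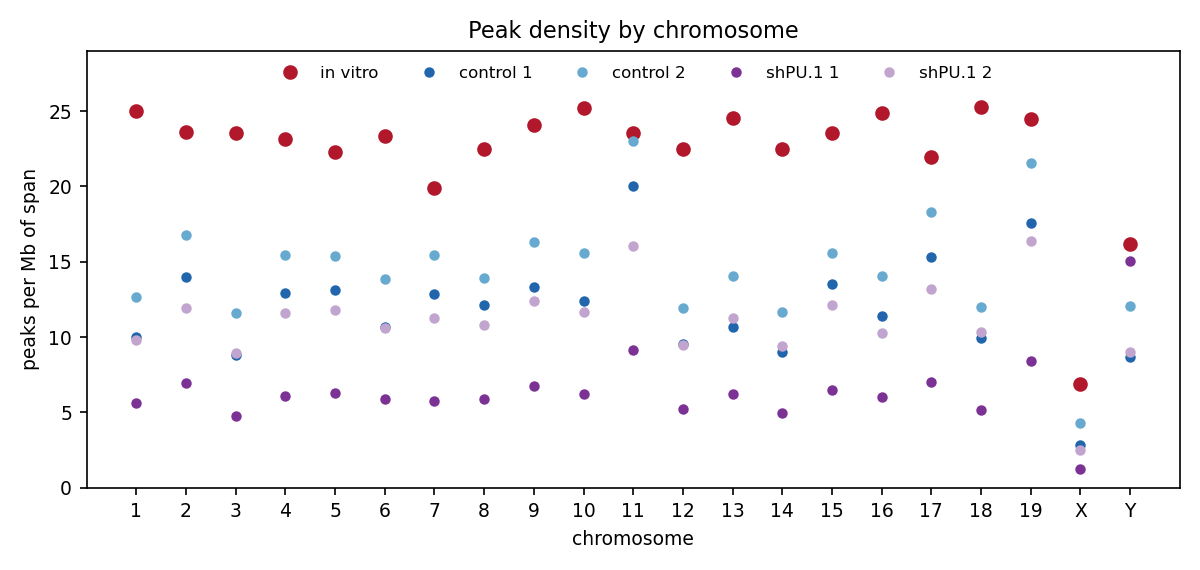
Peaks per Mb of span on each chromosome for the in vitro list and the 4 lists from cells (control and shPU.1, replicates 1 and 2). In vitro values stay between 19.9 and 25.3 on autosomes and drop to 6.91 on X; values from cells vary more and are highest on chromosome 11 or 19, except in shPU.1 replicate 1, which is highest on Y.

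The sex chromosomes stood apart. Chromosome X held 1118 peaks, 6.91 per Mb against 23.4 on autosomes, a ratio of 0.295 (binomial 95% interval 0.278 to 0.313). Its peaks were also narrower (median 746 bp against 848 bp) and lower in score (88.1 against 104), and 42.2% of them scored at least 100 against 52.3%. The ratio accordingly fell to 0.239 at a score of at least 100 and to 0.179 among the 15122 highest-scoring peaks. Neighbours within 10 kb were 1.55 times as common on X as uniform placement gives (19.9% against 12.9%), where the autosomes ranged from 0.957 to 1.10. The formula share was lower on X than on autosomes (32.8% to 39.7%), so the ratio had more room to rise. The chains of 23 and 12 peaks named above lie on X and add to its observed share. In cells the ratio of X to autosomes was 0.207 to 0.287. The labels do not give the sex of the mice. On the 2.66 Mb of chromosome Y with any peak there were 43 peaks, 4 of them saturated.

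The shift on X is larger than any among autosomes. Median widths of autosomes lay between 836 and 862 bp and median scores between 100 and 110, so both X values fell below every autosome. No cause was tested. Chromosome Y, with 43 peaks, was also below every autosome in density (16.2 per Mb) and median width (816 bp) and above every autosome in its neighbour ratio (2.40). It differed from X in a median score of 120 and in 37.2% of its peaks lying on an in vivo peak, against 15.4% on X and 16.3% to 27.5% on autosomes.

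As background, the in vitro peaks were set against the lists from cells. In vitro peaks touched peaks of control replicates 1 and 2 in 10.9% and 17.6% of cases and of shPU.1 replicates 1 and 2 in 7.28% and 13.4%. Uniform placement gives 1.57%, 2.69%, 0.811% and 2.27%, so the observed shares were 5.91 to 8.98 times higher. Peaks of both control libraries lay on 5728 in vitro peaks (9.96%, exact 95% interval 9.72 to 10.2), against 1.25% by formula, a ratio of 7.95. No list from cells had a peak on 45623 in vitro peaks (79.3%). These were narrower (median 823 bp against 941 bp) and lower in score (96.8 against 149) than the 11889 that had one.

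Overlap was sharply centred. Within 100 bp of the centre of an in vivo peak, in vitro centres were 24.3 to 33.5 times as dense as under uniform placement. At 200 to 300 bp the factor was 3.57 to 7.55, and at 750 to 1000 bp it was 0.974 to 1.22. Beyond, a slight excess persisted, at 1.15 to 1.21 between 10 and 20 kb. Shared positions thus coincided over distances below the width of most in vitro peaks.

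The share on peaks of both controls grew with the in vitro score. It was 5.20% (exact 95% interval 4.64 to 5.80) in the lowest decile, 8.43% in the sixth and 22.1% (21.0 to 23.2) in the highest. Wider peaks touch more by width alone. The formula value, which takes account of width, moved from 1.03% to 1.61%, and the ratio rose from 5.04 to 13.7. Why the share grew with score was not tested. When only the central 200 bp of each peak were used, the shares were 3.20% in the lowest and 14.5% in the highest decile. In the highest decile, 42.6% of peaks lay on some in vivo peak.

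**Figure D5:**
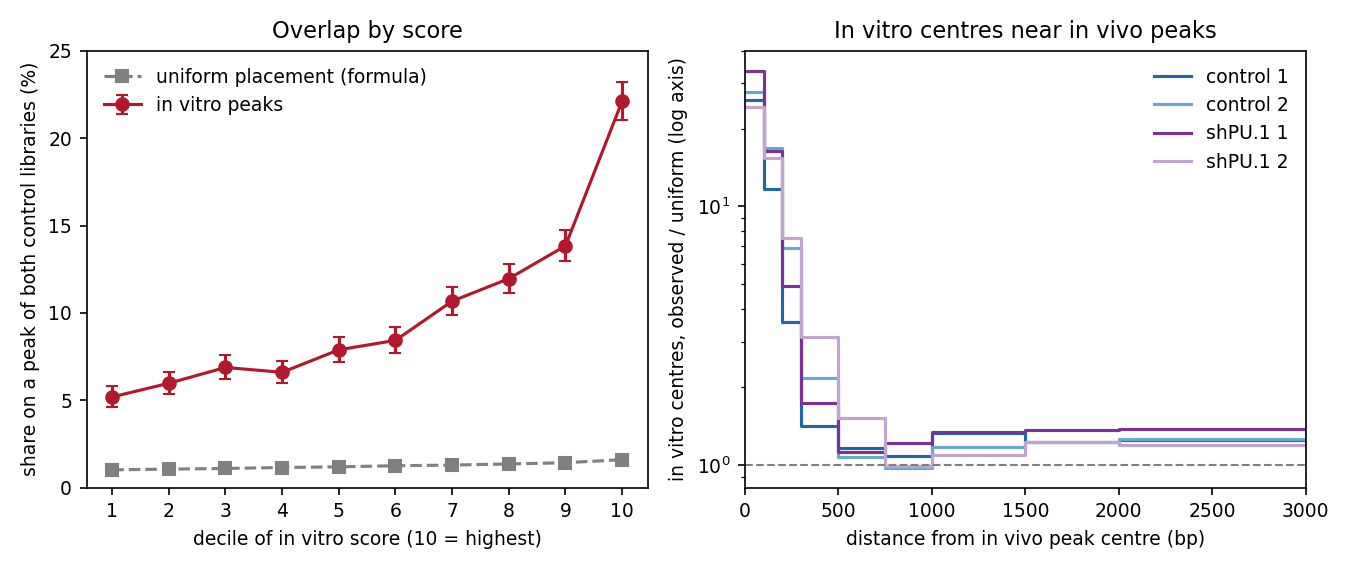
Left: share of in vitro peaks (%) lying on a peak of both control libraries, by decile of in vitro score, with exact 95% intervals, beside the share under uniform placement; it rises from 5.20% to 22.1%. Right: density of in vitro centres at a given distance (bp) from the centres of each in vivo list, relative to uniform placement (log axis).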

How the data were processed

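Per the submitters' processing notes, the authors used Bowtie 0.12.7, MACS 1.4 and build mm9, and the settings of these tools are not given in the sources read here. The deposited lists hold a position and a score per peak. The score is the authors' own; this version of MACS by convention writes 10 times the negative log10 of the p-value. Per the labels and file names, the in vitro list sets the IgG-depleted library against the PU.1-depleted one, and each list from cells sets 1 library against an input. Read depth is unknown, and no replicate of the in vitro list exists here, so no test between conditions was made. Labels number the replicates in cells without saying whether these are separate cultures.

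Python 3.11.15, numpy 2.4.6, pandas 2.3.3 and scipy 1.17.1 were used. Positions are mm9, counted from 1. Overlap means at least 1 bp. Formula values of uniform placement were tested on placements of known kind. Named peaks and regions are the top 5 by score, by width, by score among narrow peaks, by window count and by chain length, and the 3 longest empty stretches on different chromosomes. The list and these measures were chosen with earlier results of these data known. Gene tables given here are on another build and no mm9 sequence was used, so no gene, motif or promoter is named.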

Additional observations from a re-analysis of the deposited data

How the results depend on the processing

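Depth is unknown, each alternative uses the same pair of in vitro libraries, and values stay descriptions of 1 list. The settings with autosomes only, with edge-to-edge distances, with saturated in vitro peaks cut to their central 200 bp and with the 15122 highest-scoring peaks were chosen after seeing the data. No paired analysis was possible because the in vitro list is single. A minimum score of 100 gave a median width of 986 bp, a covered share of 1.19%, a correlation of score and width of 0.577, a neighbour ratio of 1.05, a window variance of 2.10 times the mean, an X ratio of 0.239 and an overlap with both controls of 9.53 times uniform. The 15122 highest-scoring peaks gave 1092 bp, 0.665%, 0.461, 1.13, 1.70, 0.179 and 11.2 in the same order. Both window variances include chromosomes X and Y, where the whole list gave 2.70. On autosomes the 15122 highest-scoring peaks gave 1.43. Without peaks scoring 3100 or more the correlation was 0.765. Spans from position 1 gave a covered share of 1.90% and a neighbour ratio of 1.05 (1.045), and the central 200 bp covered 0.447%. The neighbour ratio was 0.991 within 5 kb, below 1 because the formula ignores that peaks cannot overlap, 1.01 within 50 kb (1.007), 1.007 with uniform placement inside 1 Mb windows and 1.08 edge to edge. With chromosomes X and Y included, the window variance was 1.23 times the mean in 100 kb windows and 7.19 in 5 Mb windows. It was 2.42 without windows empty in all lists, again with X and Y. On autosomes alone it was 1.97, and 1.91 with chromosome means removed. In bases covered the X ratio was 0.267. The overlap was 27.8 times uniform with the central 200 bp, 6.54 without control replicate 1 and 6.93 without control replicate 2. The ratio of densest to sparsest autosome stayed within its interval in all 4 alternatives, though not always between the same chromosomes.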

Other observations

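From autosome to autosome, median in vitro scores followed the density of sites in cells. Over the 19 autosomes the median in vitro score had a rank correlation of 0.68 to 0.80 with peaks per Mb in the 4 lists from cells, and it ran from 100 on chromosome 12 to 110 on chromosome 17. With peaks on any in vivo peak left out, the correlations were 0.45 to 0.64. The points share libraries, so these values are descriptions.

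In 1 Mb windows both score and number were related to the lists from cells, weakly. The rank correlation with peaks from cells was 0.18 to 0.20 for the median in vitro score and 0.23 to 0.27 for the number of in vitro peaks, over the 4 lists. The 2383 autosomal windows were split into 5 groups of about equal size by the number of peaks from cells. From lowest to highest, the median of the windows' median in vitro scores was 98.6, 102, 103, 106 and 111. Without peaks on an in vivo peak it was 97.9, 98.7, 96.2, 96.4 and 95.6, with no rise. The numbers of in vitro peaks had medians of 20, 23, 24, 25 and 24 over these groups, while the medians of peaks from cells, summed over the 4 lists, went from 1 to 107.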
